A study of Mus musculus with 13 samples.

Results

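Immediate early genes encode proteins, most of them transcription factors, whose transcripts appear quickly after a signal without new protein synthesis. The genes described here are Fos, Fosb, Fosl1, Jun, Junb, Jund, Egr1, Ier2, Ier3 and Klf6, 10 genes in all. A probe set, the group of array probes that reads one transcript, was a member where the platform annotation gave it one of these symbols and no other. This gave 12 of 12654 probe sets on the Affymetrix MG-U74A array and 13 of 12488 on its successor MG-U74Av2, with all 10 genes on each, out of 8388 named genes over both arrays. Ier3 encodes a small regulator of cell survival and is not a DNA-binding factor, so it belongs to the set as an immediate early gene only.

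RNA came from mouse embryonic stem (ES) cells lysed 3 days after leukaemia inhibitory factor (LIF), the cytokine that holds them undifferentiated, was taken away. The groups of the S1 line, which grows without feeder cells, received 10 µM PD169316 (2 arrays on U74A, 2 on U74Av2), 10 µM SB203580 (1 on U74A, 2 on U74Av2) or no inhibitor (control, 2 on U74A, 2 on U74Av2). The groups of the D4 line, which depends on feeder cells and was passaged without them before the experiment, received 10 µM PD169316 (1 array on U74A) or no inhibitor (control, 1 on U74A). All groups had been kept in 500 pM LIF, went into LIF-free medium at a density of 10000 cells per ml, and were lysed as adherent cells, so detached cells were not measured. No genetic alteration of either line is labelled. Values are Microarray Suite 5.0 signals, a measure of probe brightness scaled to a target of 300 on each array.

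FOS, FOSB and FOSL1 pair with JUN, JUNB or JUND to form the transcription factor AP-1, which binds a short site in the promoters and enhancers of growth, stress and migration genes. EGR1 is a zinc finger factor, and with Fos it is a classical target of serum response factor and the ternary complex factors that mitogen-activated protein (MAP) kinases phosphorylate. JUND is the JUN protein that many resting cells also hold, while JUN and JUNB respond more sharply to signals. KLF6 is a Krüppel-like zinc finger factor that binds GC-rich promoters, and IER2 is a nuclear protein with a role in transcription. p38 is a MAP kinase of the stress response. It acts on these genes partly through kinases that phosphorylate promoter-bound factors and chromatin, and partly through the stability of their short-lived mRNAs. PD169316 and SB203580 are pyridinyl imidazole inhibitors of p38 and differ in the para substituent of one phenyl ring, which is nitro for PD169316 and methylsulfinyl for SB203580.

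Klf6 and Jund were the members that passed a test, and their promoter windows are shown for that reason, from 250 bases before to 50 bases after the gene start that RefSeq annotates on GRCm38.p6. Klf6 lies on chromosome 13 (5861489 to 5870393) and its window is chr13:5861239-5861538 on the plus strand. Jund lies on chromosome 8 (70697739 to 70700616) and its window is chr8:70697489-70697788 on the plus strand. Capitals mark matches to the searched motifs on either strand.
Klf6: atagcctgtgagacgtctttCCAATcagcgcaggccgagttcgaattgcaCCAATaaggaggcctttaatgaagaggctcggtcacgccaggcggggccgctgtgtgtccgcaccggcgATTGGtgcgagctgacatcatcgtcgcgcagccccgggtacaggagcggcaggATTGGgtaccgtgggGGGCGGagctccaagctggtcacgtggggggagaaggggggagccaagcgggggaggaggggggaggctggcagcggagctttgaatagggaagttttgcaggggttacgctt
Jund: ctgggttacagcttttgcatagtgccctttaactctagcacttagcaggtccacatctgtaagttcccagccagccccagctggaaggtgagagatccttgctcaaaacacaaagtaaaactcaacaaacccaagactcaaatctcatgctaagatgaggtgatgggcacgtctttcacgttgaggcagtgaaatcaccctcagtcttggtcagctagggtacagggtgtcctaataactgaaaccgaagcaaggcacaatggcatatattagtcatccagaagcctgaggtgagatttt
The motifs searched were the AP-1 site TGANTCA, the cyclic AMP response element TGACGTCA, the octamer ATGCAAAT, the GC box GGGCGG, the CCAAT box CCAAT, the EGR site GCGNGGGCG and the CArG box of serum response factor. Klf6 held 4 CCAAT boxes, at -230, -200, -131 and -78 from the start (first base of the match), and 1 GC box at -63. The Jund window held none of the 7 motifs. Its GC content was 46.7%, that of Klf6 63.0%, and the median over 32851 RefSeq promoters 52.7%. Egr1, Ier2 and Fosl1 had no window to search. Of the other 7 members, 5 held a GC box, 4 a CCAAT box and 1, Fosb, an EGR site, which overlaps a GC box. The remaining motifs were found in 0 of the 7. Over all promoters the shares were 35.7% for the GC box, 37.4% for the CCAAT box, 5.55% for the EGR site, 7.81% for the AP-1 site, 1.79% for the cyclic AMP response element, 1.74% for the octamer and 1.63% for the CArG box. A match is a run of letters in this window only, and other starts of these genes were not searched.

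On each version 7 member probe sets reached a signal of 100 on at least 2 S1 arrays and were tested, 1 each for Klf6, Jund, Egr1, Ier2, Ier3, Fosb and Junb. Jun, Fosl1 and Fos did not reach it in S1. Probe set names carry the suffix f, i or r where the array's design could not make all probes specific to one transcript. The U74A probe set of Fos and the U74A probe set of Egr1 with the suffix f were listed at 0 on every array. The cells carried the ES cell markers: Pou5f1 read 3450 to 6606 on U74A and 4130 to 9165 on U74Av2, and 5 to 6 of 7 markers on U74A and 7 of 7 on U74Av2 reached 100 on each array, with the U74A probe set of Nanog listed at 0. Fibroblast markers summed to 227 to 931 on U74A and to 616 to 1267 on U74Av2. On U74A the sums were 791 (control) and 931 (PD169316) in D4, and 227 to 897 in S1. A Col1a2 probe set with the suffix r read 299 to 886 on U74Av2, while the Col1a2 probe set of U74A read 7.3 to 29.7. The signal of the 3' probe set of Actb over its 5' probe set, which rises as RNA degrades, ran from 1.46 to 2.25 except on both S1 control arrays of the third hybridization day, which gave 3.31 and 3.21 (days are numbered in calendar order). The same ratio for Gapdh was 1.42 and 1.58 on those controls and highest, at 1.71, on U74Av2 SB203580 replicate 2. On U74A, replicate 1 of each S1 group was hybridized on day 3 and replicate 2 of PD169316 and control on day 2. On U74Av2, replicate 1 was hybridized on day 3, replicate 2 of PD169316 and control on day 5 and replicate 2 of SB203580 on day 4. Both D4 arrays were hybridized on day 1. Log2 ratios of PD169316 to control on the day 3 arrays correlated at r = 0.431 between the versions across 5369 probe sets, against 0.0547 to 0.240 for pairs of other days. Genes are not independent replicates, and whether the day 3 arrays of both versions share RNA was not tested.

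PD169316 against control in S1 asks which of these genes differ in level with the compound after LIF withdrawal. All arrays are from the same day, so a quick response to a signal was not measured. Klf6 and Jund were higher on every PD169316 array than on every control array of the same version. Klf6 rose by 1.45 ± 0.31 on the log2 scale (SE; 2.73-fold) and Jund by 0.80 ± 0.19 (1.74-fold), as means of the fold changes on both versions. Egr1, Ier2, Ier3, Fosb and Junb did not pass the test. The calls for Klf6 and Jund depended on single arrays, on how the versions were combined, on the signal filter and on the variance trend, as given below.

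For Klf6, the U74A signals were 481 and 329 with PD169316, against 163 and 238 in control. On U74Av2 they were 839 and 383 with PD169316, against 154 and 153 in control. The groups did not overlap on either version. The brightest array of each was PD169316 replicate 1, hybridized on day 3. PD169316 arrays averaged 611 ± 322 on U74Av2, and the controls 154 ± 0.71 (SD, n = 2 each).

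For Jund, the U74A signals were 10266 and 10989 with PD169316, against 6034 and 6794 in control. On U74Av2 they were 13783 and 7964 with PD169316, against 5579 and 5884 in control. The groups again did not overlap on either version, and U74Av2 PD169316 replicate 1 was the brightest array for Jund too. PD169316 arrays averaged 10628 ± 511 on U74A, and the controls 6414 ± 537 (SD, n = 2 each).

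**Figure D1:**
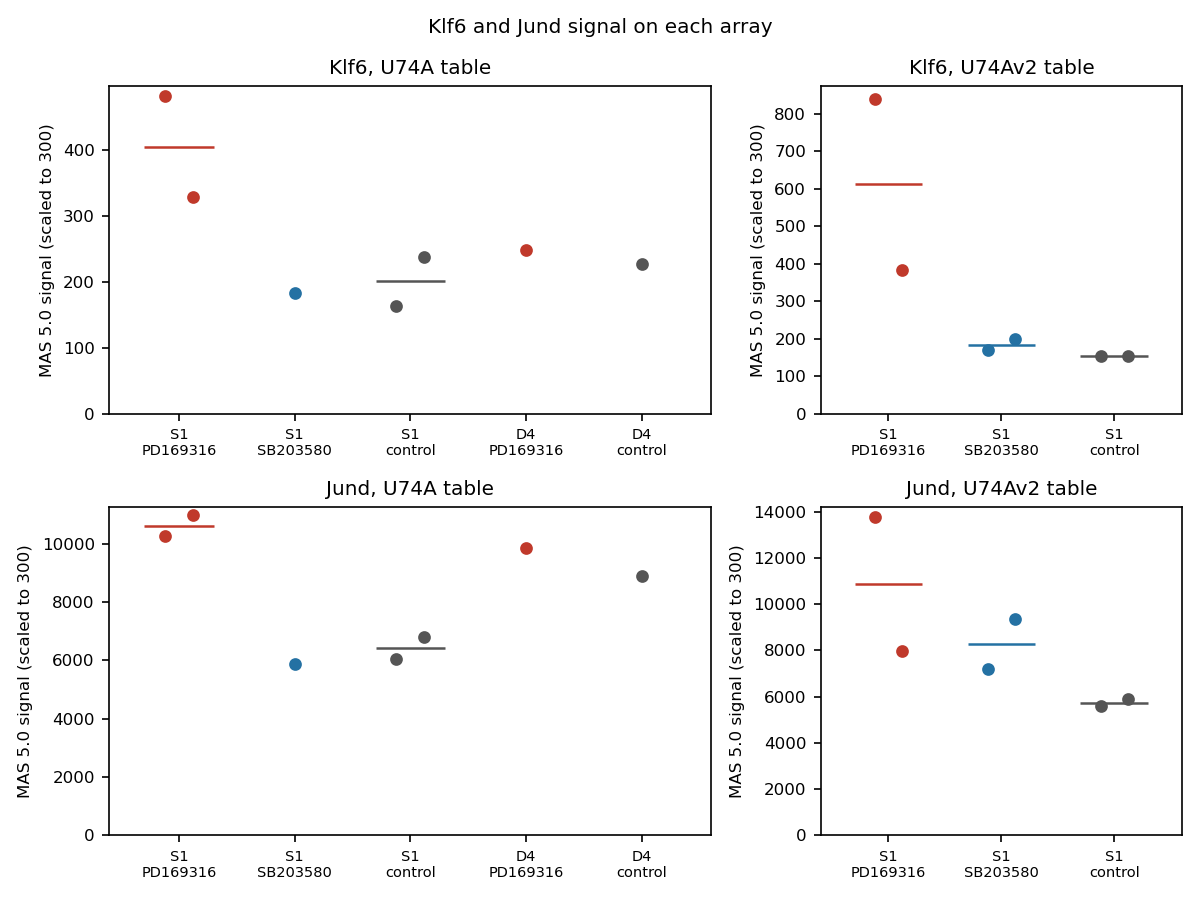
Microarray Suite 5.0 signal (linear axis from 0, scaled to 300) of Klf6 and Jund on each array of U74A and U74Av2, by cell line and treatment; points are arrays and bars the group means. All 4 S1 PD169316 points lie above the S1 control points of their panel for both genes, Klf6 with 329 to 839 against 153 to 238, while the D4 PD169316 and control points lie close together.

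Tests used limma on log2 signals with values under 32 set to 32, with the z scores of both versions combined for probe sets tested on each, and p-values adjusted by Benjamini-Hochberg over all of them. The adjusted p was 0.0158 for Klf6 (95% interval of the log2 fold change 0.85 to 2.05) and 0.0317 for Jund (0.43 to 1.17). Thus 2 of 7 tested members were called, both higher, where 101 of 5369 probe sets were called (1.88%) and 74 were higher (1.38%). The median log2 fold change was 0.60 over the 7 members and 0.03 over all probe sets tested. Higher on every PD169316 array of both versions were 2 of 7 members, and 366 of all probe sets (6.82%). No such share is given within a single version or for SB203580, so arrays that do not overlap there are described only. Within a version no member passed: on U74Av2 the log2 fold change of Klf6 was 1.88 ± 0.40 (adjusted p = 0.124; Jund 0.352), where 0.128% of all probe sets were called. On U74A that of Klf6 was 1.01 ± 0.46 (0.969, as for Jund), where 0.0176% were called. The labels do not say that replicates were separate cultures, so all p-values measure the spread between these arrays, which may be technical.

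Same-numbered PD169316 and control arrays shared a hybridization day. With the replicate number as a block, Klf6 also passed on U74Av2 alone (adjusted p = 0.0440 in limma, with 0.752% of all probe sets called), and both genes passed over both versions (0.00499 for Klf6 and 0.00893 for Jund, with 3.77% called). With the hybridization day as a block, both also passed over both versions (0.000738 and 0.000707, with 4.73% called) and on U74Av2 alone (0.00204 and 0.0104, with 2.27% called). These block fits left too few arrays to estimate the spread of a single probe set well. Their p-values therefore rest mainly on the spread pooled over all probe sets. The log2 ratio of PD169316 to control within a day was above 0 for both genes on each day. For Klf6 it was 0.47 on day 2, 1.56 (U74A) and 2.44 (U74Av2) on day 3 and 1.32 on day 5. For Jund it was 0.69 on day 2, 0.77 (U74A) and 1.30 (U74Av2) on day 3 and 0.44 on day 5.

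The combined test takes the versions as independent, and its SEs do too. Intervals come from the mean fold change and its SE and p-values from the z scores, so an interval just clear of 0 can go with an unadjusted p above 0.05. Where the correlation of their z scores (0.429 over all probe sets) was allowed for, the adjusted p was 0.154 for Klf6 and 0.227 for Jund, and 0 of 7 members passed, with 0.224% of all probe sets called. With 1 averaged ratio for each of the 3 hybridization days, the values were 0.490 and 0.553, and no probe set was called (0.0%). Both calls were lost with no filter on signal (0.220 for Klf6 and 0.223 for Jund, with 0.01% of all probe sets called) and with a variance prior that had no trend with signal (0.0749 and 0.289, with 0.577% called). Leaving out U74Av2 PD169316 replicate 1 lowered Klf6 to 1.17 (adjusted p = 0.148) and Jund to 0.60 (0.306). Both calls were also lost without U74A PD169316 replicate 1 (0.0954 for each), without U74A control replicate 1 (0.0677 for Klf6 and 0.109 for Jund), and without U74Av2 control replicate 1 (0.0693 and 0.138) or 2 (0.0527 and 0.0840). Jund alone was lost without U74A PD169316 replicate 2 (0.0897). Without both day 3 controls, the arrays with the high Actb ratio, Klf6 was at 1.31 (0.195) and Jund at 0.74 (0.327), again with 0.577% called.

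**Figure D2:**
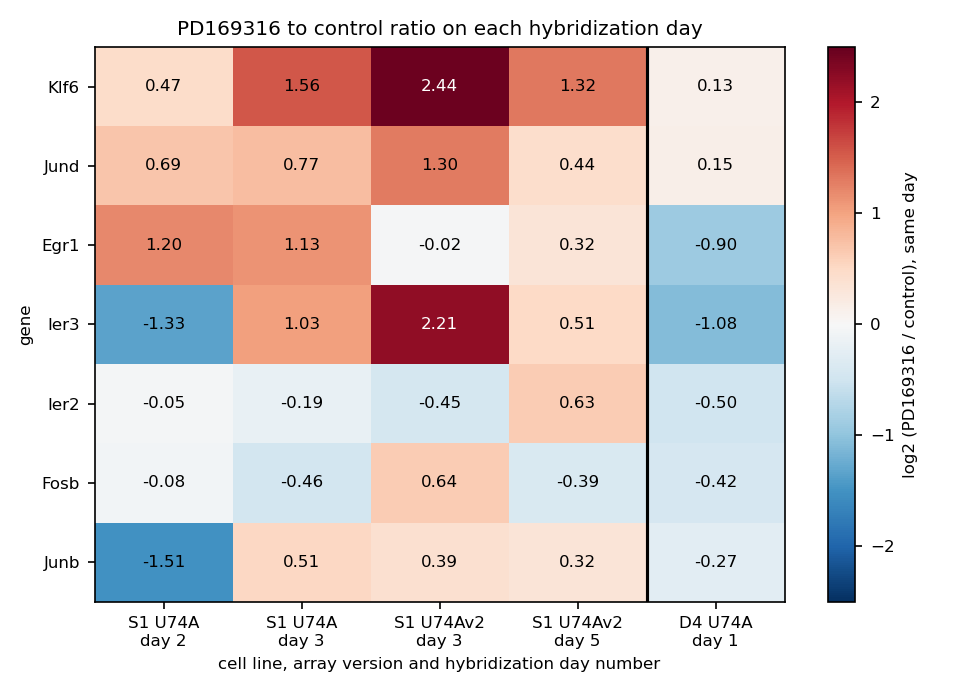
Log2 ratio of the PD169316 signal to the control signal of the same hybridization day for the 7 tested genes, one column for each line, array version and day; red is above 0 and blue below. Klf6 and Jund are above 0 in all 5 columns, Klf6 from 0.13 (D4) to 2.44 (S1, U74Av2, day 3), while Ier3 runs from -1.33 to 2.21.

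Egr1, the zinc finger factor, was not called. Its U74A signals were 204 and 284 with PD169316, against 93.2 and 124 in control, and did not overlap. On U74Av2 they were 223 and 218 with PD169316, against 227 and 174 in control, and overlapped. The log2 fold change was 1.17 ± 0.53 on U74A, 0.15 ± 0.38 on U74Av2 and 0.66 ± 0.33 over both (95% interval 0.02 to 1.30; adjusted p = 0.552). Its second U74Av2 probe set, with the suffix i, read 10.5 to 60.2 over the 6 arrays and was not tested.

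Among the FOS genes, Fosb was the one tested in S1. Fosb read 108 and 144 with PD169316, against 148 and 152 in control, on U74A, and 164 and 165 with PD169316, against 105 and 216 in control, on U74Av2. On U74A Fosb was lower on both PD169316 arrays than on both controls, and on U74Av2 it lay between the controls. Its log2 fold change over both versions was -0.07 ± 0.43 (95% interval -0.90 to 0.77; adjusted p = 0.972). Fosl1 encodes FRA-1, and its U74A signals were 75.1 and 107 with PD169316, against 33.5 and 85.1 in control. On U74Av2 Fosl1 read 18.1 and 20.5 with PD169316, against 20.7 and 45.5 in control, where values under 32 have no order. Fos, the founding member of the family, had 2 U74Av2 probe sets. The dimmer one read 46.5 and 52.9 with PD169316, against 5.2 and 41.9 in control, and the brighter one read 78.1 and 35.8 with PD169316, against 101 and 6.8 in control. Neither Fos probe set reached 100 on 2 arrays, so these arrays gave no test of Fos. Fewer cells with a transcript and less of it per cell cannot be told apart in bulk RNA.

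Among the JUN genes, only Jund was called. Junb is read by a probe set with the suffix r, with U74A signals of 148 and 149 with PD169316, against 104 and 426 in control. On U74Av2 Junb read 188 and 166 with PD169316, against 143 and 133 in control. The U74A control arrays lay on both sides of the PD169316 arrays, while on U74Av2 both PD169316 arrays were above both controls. The log2 fold change of Junb over both versions was -0.07 ± 0.43 (adjusted p = 0.994), and it ranged from -0.58 to 0.43 when single arrays were left out. The second Junb probe set showed the same bright U74A array, with 24.0 and 26.1 with PD169316, against 18.5 and 152 in control, and read 12.1 to 35.1 over the 6 U74Av2 arrays. Jun read 59.1 and 164 with PD169316, against 69.6 and 87.5 in control, on U74A, and 129 and 71.9 with PD169316, against 47.5 and 61.6 in control, on U74Av2. On U74Av2 both PD169316 arrays of Jun were above both controls, but each version had only 1 Jun array at 100 or more, so Jun was not tested.

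Ier2 and Ier3 differed in how steady they were. Ier2 read 720 and 763 with PD169316, against 820 and 789 in control, on U74A, and 792 and 1499 with PD169316, against 1081 and 972 in control, on U74Av2. On U74A Ier2 was lower on both PD169316 arrays than on both controls, and on U74Av2 the groups overlapped. Its log2 fold change over both versions was -0.01 ± 0.24 (95% interval -0.48 to 0.45; adjusted p = 0.988). Ier3 read 161 and 656 with PD169316, against 79.0 and 1650 in control, on U74A, and 269 and 225 with PD169316, against 58.1 and 159 in control, on U74Av2. The U74A control arrays of Ier3 spanned the PD169316 arrays, whereas on U74Av2 both PD169316 arrays were above both controls. The log2 fold change of Ier3 was 0.60 ± 0.67 over both versions (adjusted p = 0.578). It passed at 1.70 (adjusted p = 0.0421) without U74A control replicate 2, the array on which Ier3 and Junb were brightest in S1, and was at -0.49 without U74A control replicate 1.

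**Figure D3:**
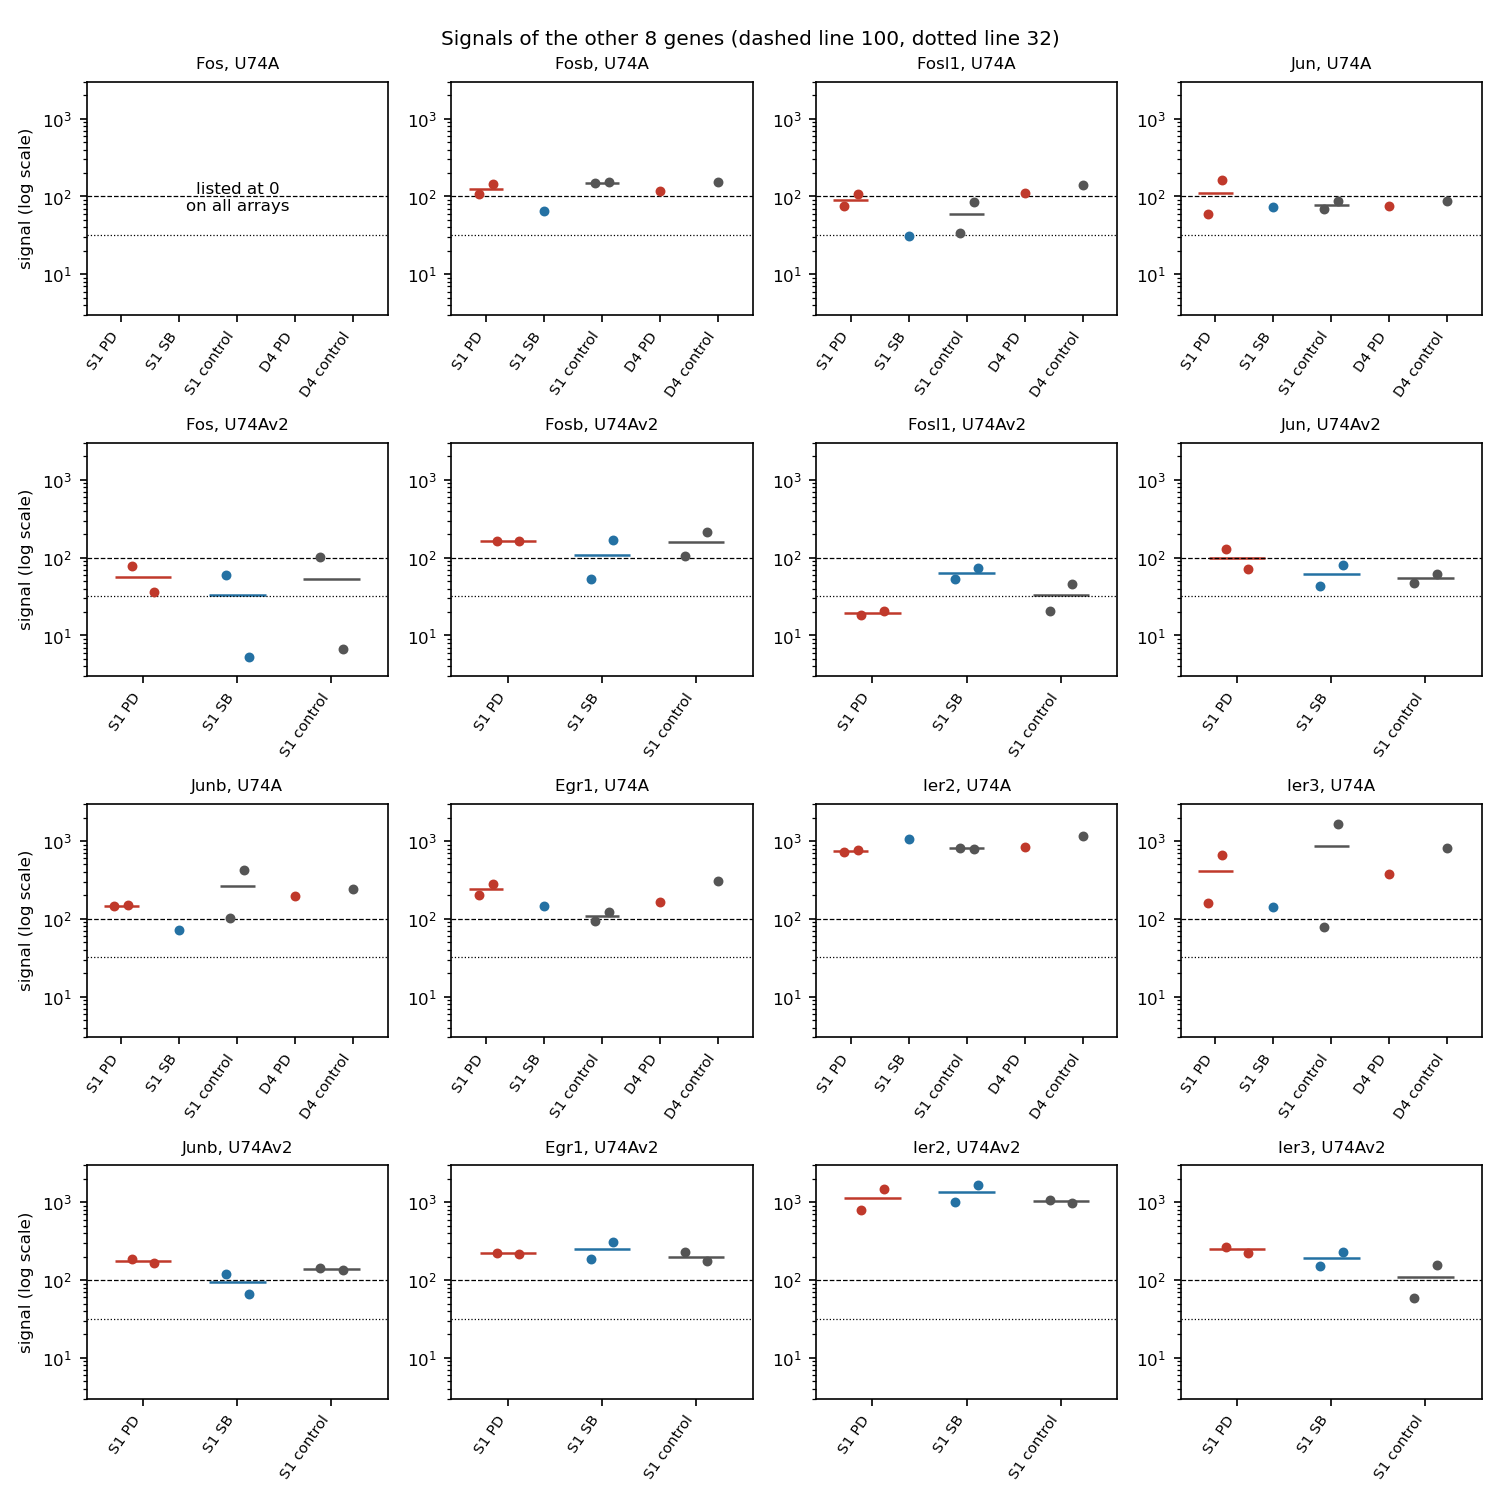
Signal (log axis) of the other 8 genes on each array, with the U74A panel of a gene above its U74Av2 panel; points are arrays, bars group means, the dashed line the minimum of 100 and the dotted line the floor of 32. Where a gene has several probe sets the brightest is drawn; Ier3 on U74A spreads from 79.0 to 1650 within the S1 control, and Fos on U74A is listed at 0.

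SB203580 against control in S1 put the second inhibitor, at the same dose and day, through the same test. For SB203580, Klf6 read 183 on U74A and 168 and 198 on U74Av2, against the control values above. On U74A this lies between the controls, and on U74Av2 it is above both. Its log2 fold change over both versions was 0.07 ± 0.35 (95% interval -0.61 to 0.75). Jund read 5856 with SB203580 on U74A, below both controls, and 7186 and 9353 on U74Av2, above both. Its log2 fold change was 0.19 ± 0.21 (-0.22 to 0.61), with -0.13 on U74A and 0.52 on U74Av2.

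Junb and Fosb gave the lowest values with SB203580. Junb read 71.9 on U74A, where SB203580 had 1 array, and 121 and 66.2 on U74Av2, below every control array of its version, for a log2 fold change of -1.09 ± 0.50. The share of all probe sets with this order is not given, so it is a description. Fosb read 64.5 on U74A and 52.6 and 167 on U74Av2, for -0.95 ± 0.48, and its U74Av2 arrays overlapped the controls. Egr1 read 145 on U74A and 189 and 307 on U74Av2 (0.36 ± 0.38), Ier2 1054 on U74A and 1020 and 1668 on U74Av2 (0.37 ± 0.27), and Ier3 143 on U74A and 153 and 231 on U74Av2 (-0.18 ± 0.80). With limma, 0 of 7 members passed, with adjusted p = 0.995 for each, and 0 of 5369 probe sets did (0.0%). At an unadjusted p under 0.05 the count was 1 of 7 members, Junb, and 249 of 5369 probe sets (4.64%). Jun and Fosl1 were not tested. Jun read 72.4 with SB203580 on U74A and 43.3 and 80.4 on U74Av2, and Fosl1 read 31.3 on U74A and 52.9 and 73.3 on U74Av2. The dimmer Fos probe set of U74Av2 read 5.5 and 37.0 with SB203580, and the brighter one 60.0 and 5.3. The second probe set of Egr1 on U74Av2 read 28.9 and 16.5 with SB203580, and that of Junb 13.1 on U74A and 12.1 and 35.1 on U74Av2, where values under 32 have no order.

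PD169316 against SB203580 compares both compounds directly, 1 pair at a matched dose and time. Klf6 was 1.38 ± 0.35 higher with PD169316 on the log2 scale (2.60-fold), but the adjusted p of 0.0650 missed the threshold. All 4 PD169316 arrays of Klf6 were above the SB203580 arrays of their version, with 329 to 839 against 168 to 198. The share of all probe sets with this order is not given. Jund differed by 0.61 ± 0.21 (1.52-fold; adjusted p = 0.287), with U74Av2 signals of 13783 and 7964 with PD169316, against 7186 and 9353 with SB203580, which overlap. The 95% intervals were 0.70 to 2.06 for Klf6 and 0.19 to 1.02 for Jund, so neither result shows that the compounds act alike on these genes. Junb (1.01 ± 0.50), Fosb (0.88 ± 0.48), Ier3 (0.79 ± 0.80), Egr1 (0.30 ± 0.38) and Ier2 (-0.38 ± 0.27) were not called either, with adjusted p-values of 0.406, 0.529, 0.738, 0.888 and 0.662. With limma, 0 of 7 members passed, against 37 of 5369 probe sets (0.689%), and 3 of 7 had an unadjusted p under 0.05 (Klf6, Jund and Junb), against 10.7% of all.

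With the hybridization day as a block, Klf6 (1.58, adjusted p = 0.0152) and Jund (0.76, 0.0450) passed between the compounds, where 2.4% of all probe sets did, and Klf6 on U74Av2 alone (adjusted p = 0.0366, where 0.794% did). In that fit U74Av2 SB203580 replicate 2, alone on its day, carried no weight. Its p-values too rest mainly on the spread pooled over all probe sets. Klf6 alone also passed without either U74A control array (0.0394 and 0.0421) or without U74Av2 PD169316 replicate 2 (1.66, 0.0191). PD169316 and SB203580 were set against the same control arrays, so their fold changes against control are not independent.

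**Figure D4:**
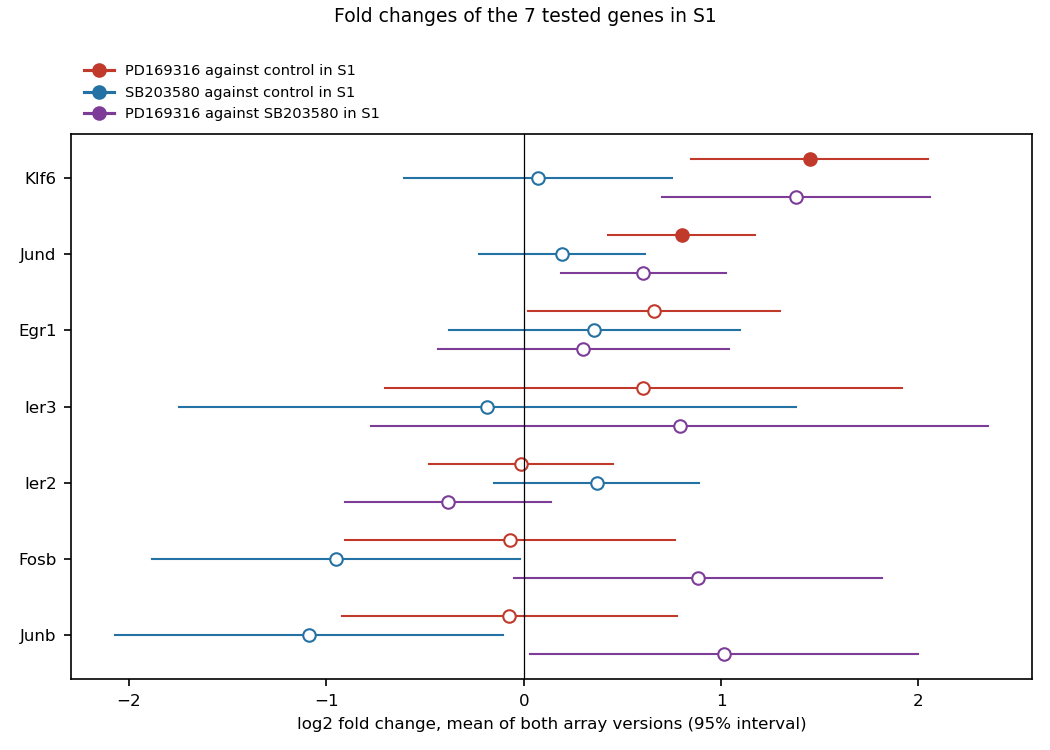
Log2 fold change of the 7 tested genes over both array versions with its 95% interval, for PD169316 against control, SB203580 against control and PD169316 against SB203580 in S1; filled points passed an adjusted p of 0.05. Klf6 at 1.45 and Jund at 0.80, both for PD169316 against control, are the filled points.

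D4 offered a second line with 1 array per group, so PD169316 against control has no replicate there. Ier3 read 381 with PD169316, against 803 in control, which is 2.11-fold lower. Egr1 read 165 with PD169316, against 308 in control. Klf6 read 249 with PD169316, against 227 in control, and Jund 9851 with PD169316, against 8883 in control. Ier3 was the 1 of 8 members with enough signal that reached 2-fold, where 15.1% of 6575 probe sets were lower and 12.7% higher by that much. Ier2 read 828 with PD169316, against 1167 in control. Fosb read 116 with PD169316, against 155 in control, and Junb 199 with PD169316, against 240 in control (43.1 against 85.1 by its second probe set). Fosl1 read 110 with PD169316, against 141 in control, and Jun 75.6 with PD169316, against 86.7 in control. The median log2 ratio was -0.39 over the 8 members and -0.04 over all probe sets. In a limma fit to the 7 U74A arrays, added after the values were seen and taking the D4 arrays to vary like those of S1, 0 of 8 members passed, and 0 of 6282 probe sets (0.0%). At an unadjusted p under 0.05 the counts were 0 members and 241 probe sets (3.84%). The 95% interval of the log2 ratio was -1.40 to 1.67 for Klf6 and -0.74 to 1.03 for Jund.

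Whether the response differed between the lines was tested in limma on the 7 U74A arrays, on the same assumption. For Egr1 the effect of PD169316 in D4 minus that in S1 was -2.07 ± 0.90 (95% interval -4.13 to -0.014; unadjusted p = 0.0488, adjusted p = 0.9997). It was -0.88 ± 0.82 for Klf6 and -0.58 ± 0.48 for Jund, with intervals of -2.76 to 0.998 and -1.66 to 0.50. None of 8 members and none of 6282 probe sets passed (0.0%), and at an unadjusted p under 0.05 the counts were 1 and 156 (2.48%). The lines also differ in hybridization day, so line and day cannot be told apart.

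In D4 control against S1 control, all 8 tested members had a log2 difference above 0 as deposited, with a median of 0.50 where that of all probe sets was 0.09. After quantile normalization Fosb, Junb and Klf6 were below 0 (-0.25, -0.091 and -0.044). Egr1 had the largest difference of the 8, with 308 in D4 control, against 93.2 and 124 in S1 control (1.52 ± 0.64; adjusted p = 0.985). Fosl1 read 141 in D4 control, against 33.5 and 85.1 in S1 control (1.40 ± 0.996). Limma called 0 of 8 members and 0 of 6282 probe sets (0.0%), and at an unadjusted p under 0.05 the counts were 1, Egr1, and 244 (3.88%).

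Genes of the same circuits were read from lists chosen alongside the members, with earlier results of these data known. Counts within these lists describe the genes and are no test of a list. Of 40 other immediate early genes, 24 were tested on both versions, and 2 rose with PD169316 in S1 against control, where 1.38% of all probe sets did. They were Ccn1 (1.49 ± 0.38, adjusted p = 0.0482), a secreted matrix protein, and Gadd45a (1.06 ± 0.27, 0.0291), a growth arrest gene of the DNA damage response. In all, 18 of the 24 were above 0 and 6 below, with a median of 0.36. Neither call held with the correlation of the versions allowed for (adjusted p = 0.292 for Ccn1 and 0.216 for Gadd45a). Gadd45b rose on U74Av2 through a probe set with the suffix f (3.50 ± 0.51, 0.0351), but its probe set present on both versions was not called (1.61 ± 0.43, 0.0671).

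None of the 6 tested AP-1 partners and corepressors passed. Those with the smallest p were Atf4 (0.45 ± 0.22), Nab1 (0.41 ± 0.36) and Mafg (0.21 ± 0.28), which encode a stress-response factor that can pair with AP-1 proteins, a corepressor of EGR1 and a small MAF protein. None of the 10 tested upstream kinases and ternary complex factors passed. Map2k6, a kinase that activates p38, was at 1.63 ± 0.58 (adjusted p = 0.260), Mapkapk2, a kinase that p38 activates, at 0.26 ± 0.25 and Map2k4 at 0.34 ± 0.37. Of 8 tested AP-1 and EGR1 target genes, 3 rose, where 1.38% of all probe sets did. They were the metallothioneins Mt1 (2.92 ± 0.25, adjusted p = 1.63e-06) and Mt2 (2.35 ± 0.21, 2.17e-06), which bind metals and have other regulators too, and the keratin gene Krt18 (1.31 ± 0.30, 0.0160). This list too was chosen with earlier results known, so the count does not measure AP-1 or EGR1 activity. With the correlation of the versions allowed for, Mt1 and Mt2 still passed (0.000655 each) and Krt18 did not (0.154). With SB203580 against control, none of the genes of these 4 lists passed. Mt1 (2.36 ± 0.28, 0.000115) and Mt2 (2.08 ± 0.23, 0.000115) were also higher with PD169316 than with SB203580.

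Some cell type markers also passed the test. Of 6 tested ES cell markers, 3 fell with PD169316 in S1 against control: Tdgf1 (-1.91 ± 0.45), Fgf4 (-1.08 ± 0.23) and Utf1 (-0.90 ± 0.22). Of all probe sets, 1.88% were called in either direction, and 1.38% were called higher. The other ES cell markers did not pass, Pou5f1 at -0.57 ± 0.20, Sox2 at -0.086 ± 0.19 and Zfp42 at 0.14 ± 0.29. None of the 3 calls held with the correlation of the versions allowed for (adjusted p = 0.139, 0.152 and 0.221). Utf1 was also lower with PD169316 than with SB203580 (adjusted p = 0.0482, and 0.406 with that correlation). Summed over 7 markers, the signal on U74A was 12909 and 10119 with PD169316, against 20936 and 15486 in control. Nanog, listed at 0 on U74A, added nothing to those sums. On U74Av2, where Nanog read 934 to 2888, the sums were 17079 and 19740 with PD169316, against 25632 and 27643 in control. With SB203580 the sum was 18187 on U74A, between the controls, and 21254 and 20474 on U74Av2, below both. The median log2 fold change of the tested ES cell markers against control was -0.77 with PD169316 and -0.10 with SB203580 on U74A. On U74Av2 it was -0.51 with PD169316 and -0.65 with SB203580. No ES cell marker passed for SB203580 against control. Of 4 tested markers of primitive and visceral endoderm, Col4a1, a basement membrane collagen that other cells make too, rose (1.71 ± 0.29; adjusted p = 0.00317, and 0.0636 with that correlation). Lama1 (0.81 ± 0.33), Gata4 (0.27 ± 0.67) and Dab2 (-0.81 ± 0.42) did not pass, nor did the 2 tested fibroblast markers, Col1a1 (-0.82 ± 0.51) and Thy1 (-1.08 ± 0.63). The transcription factor genes Gata4, Gata6 and Sox17 read at most 346, 124 and 172 on any array. With 1 ratio per hybridization day or with no filter on signal, none of the list genes and markers named as rising or falling was called over both versions. Without U74Av2 PD169316 replicate 1 the calls of Ccn1, Gadd45a, Krt18, Tdgf1, Fgf4 and Utf1 were lost, with adjusted p from 0.0600 (Krt18) to 0.388 (Ccn1). Of the 11 S1 arrays left out in turn, 3 (Tdgf1) to 9 (Ccn1) ended each of these calls, and none ended those of Mt1, Mt2 and Col4a1. The part of these changes in the results for Klf6 and Jund was not tested.

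The patterns most like Egr1 and Jun were sought among 4861 probe sets, by the mean absolute difference of the log2 ratio to control over the 8 treated arrays. For Egr1 they were Mrps7 (0.215), Rbm39 (0.248) and Dxo (0.249), and for Jun they were Cst3 (0.191), D430019H16Rik (0.217) and Cadm1 (0.223). The arrays share controls within a line and version, so these figures are descriptions. Jun reached 100 on only 1 array of each version, so its ratios are those of a dim probe set. Fos was not compared in this way because its U74A probe set is listed at 0.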

How the data were processed

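Per the labels, the authors made biotin-labelled cRNA from 5 µg of total RNA, hybridized 10 µg for 16 h, and computed intensities per probe set with Microarray Suite 5.0 (version also in the submitters' processing notes), scaled globally to a trimmed mean of 300; the deposited intensities were used as they stand. Groups came from sample titles and hybridization days from the arrays' files. The 2 tables were scaled separately, so tests stayed within a table. Precision is limited by how few arrays there are.

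The members and lists were chosen with earlier results of these data known. Every member probe set is given, the brightest stands for a gene in counts, and of each list the called genes are named or, failing those, the 3 with the smallest p. Entrez identifiers of 25 of 25 member probe sets matched RefSeq (GRCm38.p6), which also gave positions and promoters. Signals under 32 were set to 32 (which understates changes of dim genes) and converted to log2. Array control probe sets, and 2611 U74A probe sets listed at 0 on all arrays, were left out. The two-sided tests came from limma 3.58.1 (lmFit, eBayes with trend; R 4.3.3), at an adjusted p of 0.05, on probe sets reaching 100 on 2 or more arrays of the fit. All groups of a fit shared one spread, so a lone array counts as no more variable than replicated ones. The combined test divided the sum of both z scores by the square root of 2. The verbs rose and fell are kept for genes that passed.

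Deviations of same-numbered PD169316 and control arrays from their group means correlated at 0.208 (U74A) and 0.179 (U74Av2), and SB203580 with control at 0.0802. Pairing by number rests on the shared hybridization day of PD169316 and control. Alternatives were other floors and signal minimums, quantile normalization, no trend, a replicate or day block, the correlation of the versions and leaving out single arrays. One ratio per day, leaving out both day 3 controls and the test in D4 were added after seeing the data.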

Additional observations from a re-analysis of the deposited data

How the results depend on the processing

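Over both versions, Klf6 (1.17 to 1.73 on the log2 scale) and Jund (0.60 to 0.998) stayed above control for PD169316 in all 22 alternatives each. Klf6 passed in 12 and missed in 10, and Jund passed in 11 and missed in 11, with adjusted p from 0.000738 to 0.490 and from 0.000707 to 0.553. The passes include fits without an SB203580 array, which enters this comparison only through the shared spread. Of the PD169316 and control arrays left out in turn, most ended the call of each gene. The count of members called for PD169316 against control, 2, became 0 with no filter on signal, without the trend, allowing for the correlation of the versions, with one ratio per day and with both day 3 controls left out. It ranged from 0 to 3 when single arrays were left out. On U74Av2 alone the count was 1 with the replicate block, 2 with the day block and 0 to 1 with single arrays left out. For PD169316 against SB203580 it was 2 (both versions) and 1 (U74Av2) with the day block, and 0 to 1 and 0 with single arrays left out. The cause was not tested. The replicate block changed no other call; the U74A SB203580 array has no number in its title and was left out of that fit.

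Changes of sign were seen in values that were not called. With the day block, Ier3 was at 0.27 (U74A) and 0.62 (both) for SB203580 against control and at -0.42 and -0.011 for PD169316 against SB203580, Klf6 at -0.16 (U74Av2) and -0.13 (both) and Egr1 at -0.18 for SB203580 against control, and Egr1 at 0.33 for PD169316 against SB203580 on U74Av2. For PD169316 against control over both, Ier2 was at 0.014 after quantile normalization, 0.087 with one ratio per day and 0.038 without the day 3 controls, where Ier3 was at -0.85 and Klf6 for SB203580 at -0.063. Quantile normalization put the Fosb difference between the lines' responses at 0.082 and, for D4 control against S1 control, Junb at -0.091, Fosb at -0.25 and Klf6 at -0.044.

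With single arrays left out, PD169316 against control ranged from -1.52 to 0.51 (Junb) and -2.34 to 2.04 (Ier3) on U74A, from -0.39 to 0.65 (Fosb), -0.039 to 0.34 (Egr1) and -0.37 to 0.55 (Ier2) on U74Av2, and from -0.58 to 0.43 (Junb), -0.33 to 0.19 (Fosb), -0.49 to 1.70 (Ier3) and -0.24 to 0.22 (Ier2) over both. SB203580 against control ranged from -3.53 to 0.86 (Ier3) and -0.38 to 0.17 (Klf6) on U74A, from -1.52 to 0.15 (Fosb), -0.073 to 0.63 (Egr1) and -0.0059 to 0.70 (Ier2) on U74Av2, and from -1.28 to 0.91 (Ier3) and -0.065 to 0.21 (Klf6) over both. PD169316 against SB203580 on U74Av2 ranged from -0.042 to 0.75 (Jund), -0.020 to 1.65 (Fosb), -0.48 to 0.22 (Egr1) and -0.72 to 0.20 (Ier2). The difference between the lines' responses ranged from -0.78 to 1.25 (Junb), -0.36 to 0.056 (Fosb) and -3.12 to 1.27 (Ier3), and D4 control against S1 control from -0.83 to 1.21 (Junb), -1.04 to 3.35 (Ier3) and -0.070 to 0.47 (Klf6). Of all alternatives, 1037 fold changes kept direction and call, 50 changed sign, 11 were newly called and 21 lost a call, with 140 counts unchanged and 19 moved.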
